A study of Mus musculus with 6 samples.

Results

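Genes that mark B lymphocytes were read in CD8 T cells sorted from mouse pancreas, to see what level of B cell RNA these sorts carried and whether it differed between the mice. The 9 marker genes Ms4a1, Cd79a, Cd79b, Ighm, Pax5, Blk, Cr2, Bank1 and Ebf1 were taken by gene symbol from 19929 genes with a probe of a single symbol. Each gene was read from 1 probe, the one with the highest mean over all 6 arrays. The cells carried the AI4 antigen receptor, a transgenic T cell receptor for a beta cell antigen, and came from 3 samples of Rip-B7xAI4 mice, labelled resistant to type 1 diabetes, and 3 samples of AI4 mice, labelled as having developed it. Both groups carried AI4 on a C57BL/6.H2g7/g7 background, and Rip-B7x adds the inhibitory ligand B7x under the rat insulin promoter, which is active in beta cells. Ages, sexes and numbers of mice are not given in the labels. Each sample was sorted from pooled pancreata as cells stained by anti-CD8 and by an H-2Db tetramer loaded with MimA2, a gate that selects against B cells.

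B cells recognise antigen through surface immunoglobulin, whose mu heavy chain is encoded by Ighm, held in a complex with the signalling chains Cd79a and Cd79b. The transcription factors Ebf1 and Pax5 establish and keep B cell identity and drive many of the other genes named here. B cells are found in inflamed islets of mice with autoimmune diabetes, where they can present antigen to T cells.

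The labelled cell type was checked first. The T cell marker list had a mean log2 level of 9.86, 10.13 and 9.46 in Rip-B7xAI4 replicates 1, 2 and 3, against 9.57, 10.04 and 10.08 in AI4 replicates 1, 2 and 3. Cd8a, the alpha chain of CD8, had log2 values of 9.71, 10.42 and 9.21 in Rip-B7xAI4, against 10.89, 10.43 and 10.10 in AI4. Cd8b1, the CD8 beta chain, had 9.53, 10.73 and 10.05 in Rip-B7xAI4, against 10.48, 11.34 and 11.49 in AI4. Cd3e went the other way, with 11.19, 11.01 and 10.65 in Rip-B7xAI4, against 9.11, 10.50 and 10.59 in AI4. Of the 13 tested T cell markers, 6 had a positive difference, Rip-B7xAI4 minus AI4, and 7 a negative one, with a median of -0.02. By array, 6 of the 13 lay below all 3 AI4 arrays in Rip-B7xAI4 replicate 1, 1 in replicate 2 and 8 in replicate 3. Over all tested genes these shares were 40.7%, 32.4% and 30.2%. Above all 3 AI4 arrays lay 3, 6 and 1 of the 13, against 26.6%, 19.7% and 18.4% of all tested genes. Array medians over all probes lay between 5.94 and 6.10. All values are the authors' normalized log2 levels, no measure of background was used here, and a level of 1 probe is never set against that of another. The labels call the samples biological replicates, and the 3 arrays per group limit the precision of every value.

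No B cell marker gene passed the test of a difference between the groups. Of the 9 genes, 7 were bright enough to test, and Cr2 and Ebf1 were not, because their means fell among the dimmest 30% of genes (a mean log2 under 5.471). In limma, 0 of 7 tested members passed an adjusted p of 0.05 in either direction, where 0.00717% of all 13950 tested genes did. At an unadjusted p under 0.05 it was also 0 of 7, where 8.73% of all tested genes passed. The groups overlapped for all 9 members. Among all tested genes the groups did not overlap for 5.99% with Rip-B7xAI4 higher and for 11.9% with Rip-B7xAI4 lower. The median difference, Rip-B7xAI4 minus AI4, was 0.20 on the log2 scale over the 7 tested members and -0.10 over all tested genes.

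**Figure D1:**
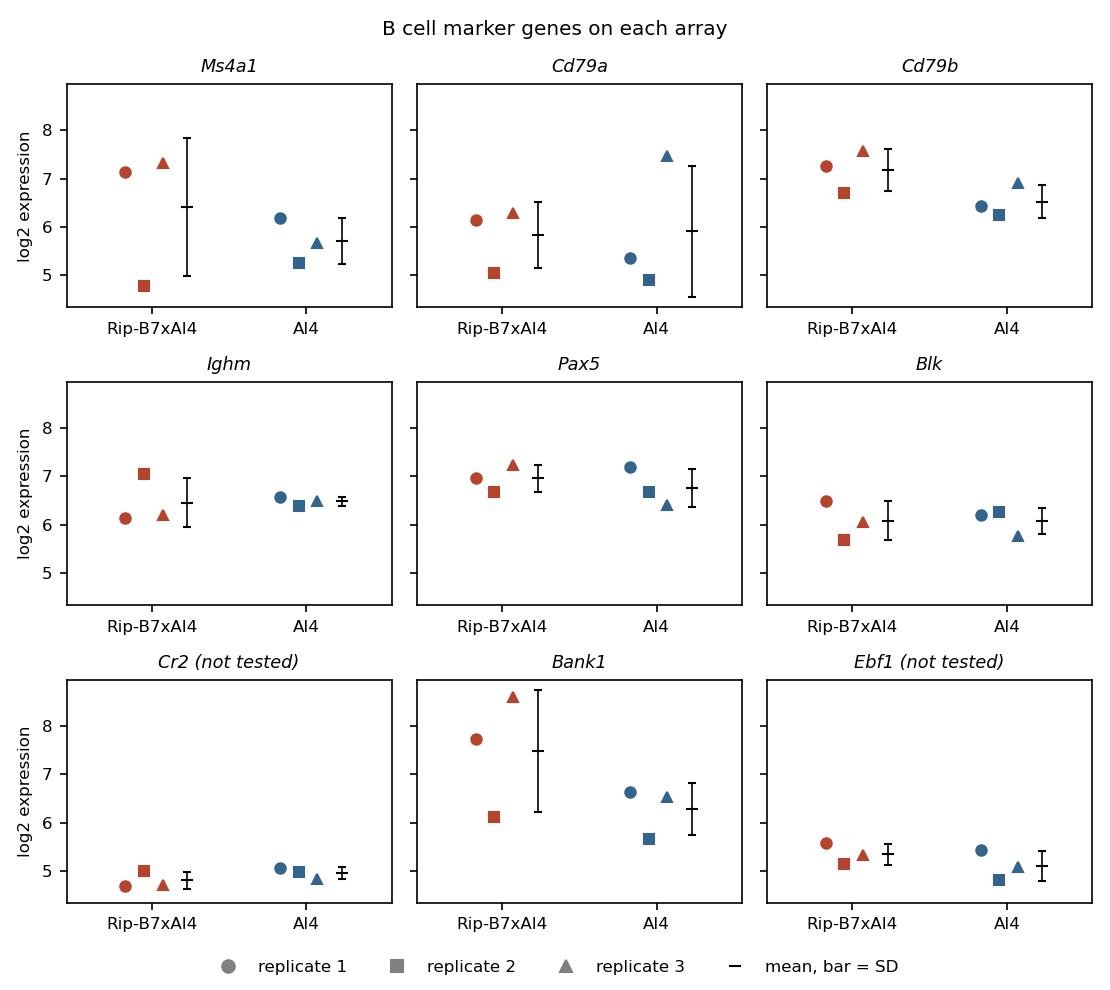
Log2 expression of each of the 9 B cell marker genes (y axis) on the 3 Rip-B7xAI4 and the 3 AI4 arrays (x axis), with the shape giving the replicate number and the black mark the mean and SD. Bank1, Ms4a1 and Cd79b were highest in Rip-B7xAI4 replicates 1 and 3, Cd79a was highest in AI4 replicate 3, and the groups overlapped in every panel.

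None of the 3 genes of the antigen receptor complex passed the test. Ighm (probe 10402991) had log2 values of 6.13, 7.05 and 6.20 in Rip-B7xAI4 replicates 1, 2 and 3, against 6.58, 6.39 and 6.50 in AI4. Its highest and its lowest value were thus both in Rip-B7xAI4, and its difference was -0.03 ± 0.27 (SE), with an adjusted p of 0.967 by limma. Cd79a (probe 10551025), the Ig-alpha chain, had 6.15, 5.06 and 6.29 in Rip-B7xAI4, against 5.37, 4.91 and 7.46 in AI4. AI4 replicate 3 alone was well above the rest, and the AI4 mean of 5.91 ± 1.36 (SD, n = 3) spanned the Rip-B7xAI4 values. The difference of Cd79a was -0.08 ± 0.69 (SE; adjusted p = 0.967 by limma), and it was 0.70 ± 0.43 without AI4 replicate 3 (adjusted p = 0.492 by limma), with 0.492 to 0.997 over all alternatives.

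Cd79b (probe 10392142), the Ig-beta chain that pairs with Cd79a, had log2 values of 7.25, 6.71 and 7.56 in Rip-B7xAI4, against 6.43, 6.25 and 6.90 in AI4. Rip-B7xAI4 replicates 1 and 3 lay above every AI4 array, and replicate 2 lay below AI4 replicate 3. Cd79b differed by 0.65 ± 0.29 (SE), with a 95% interval of -0.03 to 1.33 and an adjusted p of 0.567 by limma. It kept a positive difference in all 16 alternatives run, between 0.18 and 0.88, and passed an adjusted p of 0.05 in 0 of them. The block, filter, probe and eBayes alternatives could not move the difference of a gene with 1 probe. They left it at 0.65, so they say nothing about its sign.

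The probes of Ighm disagreed with one another on which array was highest. Probe 10402864 was nearly flat, at 5.99, 6.01 and 6.29 in Rip-B7xAI4, against 6.30, 6.11 and 6.16 in AI4. Probe 10403069 had 5.26, 3.36 and 3.63 in Rip-B7xAI4, against 4.66, 4.25 and 3.49 in AI4. Its highest array was Rip-B7xAI4 replicate 1, where probe 10402991 was at its lowest. Immunoglobulin genes are rearranged and share sequence between segments, so a value of any 1 of these probes is uncertain as a measure of Ighm. The difference between group means was -0.09 for probe 10402864, -0.03 for probe 10402991 and -0.05 for probe 10403069.

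Promoter sequences are shown for Cd79a and Bank1, because Cd79a was high on an AI4 array and Bank1 had the greatest group difference of the 9 genes, on arrays of the other group. Each is the 250 bases before the RefSeq start site on GRCm38.p6, 5′ to 3′ on the strand of the gene, at chr7:24897247-24897496 (plus strand) for Cd79a and chr3:136326067-136326316 (minus strand) for Bank1. Capitals mark matches, on either strand, to CAGGTG, an E-box that E2A proteins bind, and to CCCNNGGG, a core that Ebf1 binds.
Cd79a: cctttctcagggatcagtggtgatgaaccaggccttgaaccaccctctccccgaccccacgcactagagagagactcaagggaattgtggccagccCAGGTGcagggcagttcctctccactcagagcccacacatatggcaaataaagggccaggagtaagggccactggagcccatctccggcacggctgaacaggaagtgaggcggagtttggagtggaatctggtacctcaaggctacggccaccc
Bank1: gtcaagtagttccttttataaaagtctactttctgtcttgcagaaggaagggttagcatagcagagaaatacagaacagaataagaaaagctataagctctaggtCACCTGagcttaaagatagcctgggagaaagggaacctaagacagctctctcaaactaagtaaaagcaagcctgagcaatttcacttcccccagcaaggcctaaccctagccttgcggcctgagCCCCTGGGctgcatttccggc
Both hold 1 CAGGTG match, and Bank1 also holds 1 CCCNNGGG match. Only exact matches to these letters were sought, so the lack of a mark does not show that a promoter lacks a binding site. The reference table held such windows for 5 of the 9 genes (Cr2, Bank1, Pax5, Cd79a and Ebf1, the last with an additional start site), and CAGGTG was found in 3 of these genes, CCCNNGGG in 1 and the octamer ATGCAAAT in 0. Over all 32851 promoter windows of that length CAGGTG was found in 17.2%, CCCNNGGG in 11.8% and ATGCAAAT in 1.6%. In Bank1, the only printed sequence with both motifs, the 2 matches did not overlap.

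Of the genes that act downstream of the receptor, Bank1 varied more between arrays than Blk. Bank1 (probe 10502335), an adaptor that links the B cell receptor to calcium release, had log2 values of 7.72, 6.11 and 8.59 in Rip-B7xAI4 replicates 1, 2 and 3, against 6.64, 5.66 and 6.54 in AI4. Rip-B7xAI4 replicates 1 and 3 lay above every AI4 array, and replicate 2 lay within the AI4 range. The difference was 1.19 ± 0.63 (SE), with a 95% interval of -0.30 to 2.69 and an adjusted p of 0.582 by limma. Without Rip-B7xAI4 replicate 2 the difference of Bank1 was 1.88 ± 0.42 (adjusted p = 0.266 by limma, with 0.266 to 0.961 over all alternatives), and without Rip-B7xAI4 replicate 3 it was 0.64. Without Rip-B7xAI4 replicates 1 and 3 together it was -0.17.

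Blk (probe 10420758), a Src family kinase of B cells that some T cells of the gamma delta lineage also make, had 6.50, 5.69 and 6.06 in Rip-B7xAI4, against 6.19, 6.27 and 5.76 in AI4. Its arrays interleaved, and its difference was 0.01 ± 0.26 (SE), with a 95% interval of -0.62 to 0.63 and an adjusted p of 0.994 by limma.

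Among the surface proteins, Ms4a1 followed Bank1 by array. Ms4a1 (probe 10466172), which encodes CD20, had log2 values of 7.14, 4.78 and 7.32 in Rip-B7xAI4 replicates 1, 2 and 3, against 6.20, 5.25 and 5.68 in AI4. Its highest and lowest arrays were both Rip-B7xAI4, replicates 3 and 2, with a range of 2.54 over the 6 arrays. The Rip-B7xAI4 mean was 6.42 ± 1.42 (SD, n = 3), against 5.71 ± 0.47 (SD, n = 3) in AI4. The difference of 0.71 ± 0.68 (SE) had an adjusted p of 0.668 by limma. It was 1.52 ± 0.32 without Rip-B7xAI4 replicate 2 (adjusted p = 0.247 by limma, with 0.247 to 0.953 over all alternatives), 0.34 without Rip-B7xAI4 replicate 1, 0.25 without Rip-B7xAI4 replicate 3 and -0.93 without both of these.

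Cr2 (probe 10361292), which encodes the complement receptors CD21 and CD35 of mature B cells and follicular dendritic cells, lay below the array median on all 6 arrays. Its log2 values were 4.70, 5.01 and 4.71 in Rip-B7xAI4, against 5.06, 4.98 and 4.83 in AI4. Cr2 ran opposite to Ms4a1 and Bank1 within Rip-B7xAI4, with replicate 2 the highest of the 3. Its mean difference was -0.15, and when no gene was left out for dimness its adjusted p was 0.705 by limma.

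The transcription factors had ranges over the 6 arrays of 0.82 for Pax5 and 0.77 for Ebf1, where the median range of all tested genes was 0.83. Pax5 (probe 10512669) had log2 values of 6.96, 6.69 and 7.24 in Rip-B7xAI4, against 7.20, 6.68 and 6.42 in AI4. Its difference was 0.20 ± 0.26 (SE), with a 95% interval of -0.42 to 0.82 and an adjusted p of 0.733 by limma. The difference of Pax5 was 0.03 without AI4 replicate 3, 0.06 without Rip-B7xAI4 replicate 3, 0.34 without Rip-B7xAI4 replicate 2 and 0.42 without AI4 replicate 1. Ebf1 (probe 10375360), which stromal and fat cells also make, had 5.57, 5.15 and 5.32 in Rip-B7xAI4, against 5.44, 4.81 and 5.08 in AI4. It lay below the array median on all 6 arrays, its mean difference was 0.24, and its adjusted p was 0.671 by limma when no gene was left out for dimness. For both factors the arrays of the groups interleaved.

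**Figure D2:**
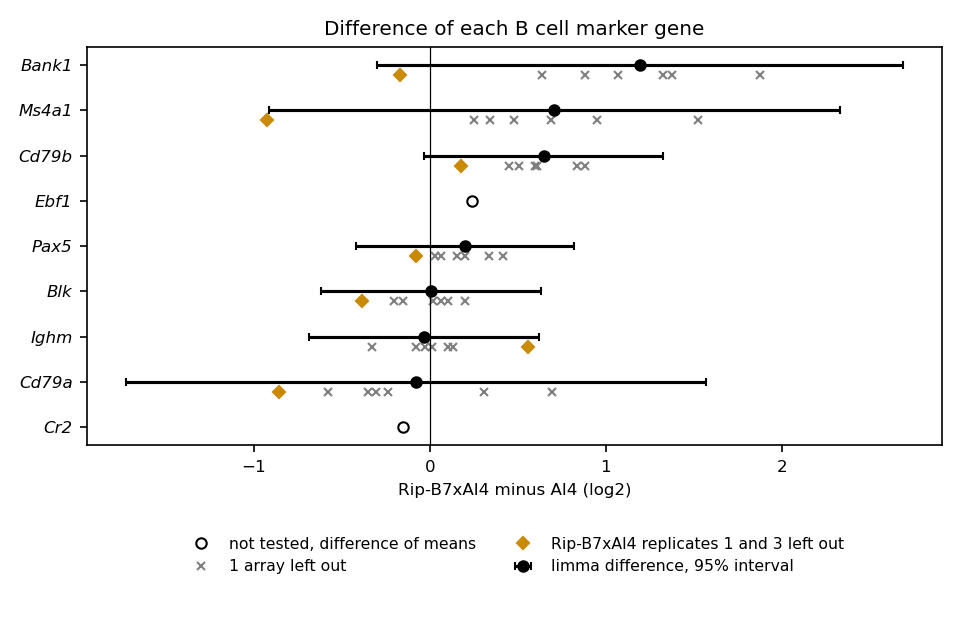
Difference of each of the 9 genes, Rip-B7xAI4 minus AI4 (x axis, log2), with the 95% interval from limma for the 7 tested genes, open circles for the 2 not tested, crosses for fits with 1 array left out and diamonds for the fit without Rip-B7xAI4 replicates 1 and 3. Every interval includes 0. In the fit without those arrays 5 tested genes change sign, Bank1 to -0.17, Ms4a1 to -0.93, Pax5 to -0.076, Blk to -0.38 and Ighm to 0.56.

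Spread between arrays of the same group set 3 members apart. The residual SD was 1.06 for Ms4a1, 1.07 for Cd79a and 0.97 for Bank1 on the log2 scale, against a median of 0.29 over all tested genes. Of the tested genes, 97.1% had a smaller residual SD than Ms4a1, 97.2% than Cd79a and 96% than Bank1. The other 4 tested members had residual SDs between 0.34 and 0.39, with 59.4% to 66.1% of tested genes below them. For 7 of the 9 members the SD over the Rip-B7xAI4 arrays was greater than the absolute difference between the groups. The share over all tested genes was not computed, so this count is not read as a trait of the members.

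The 3 Rip-B7xAI4 arrays stood differently against AI4. Replicate 1 lay above all 3 AI4 arrays for 4 of the 7 tested members, Ms4a1, Cd79b, Blk and Bank1, where it did so for 26.6% of all tested genes, and below them for 1, Ighm, where it did so for 40.7%. Replicate 3 lay above all AI4 arrays for 4 of 7, Ms4a1, Cd79b, Pax5 and Bank1, against 18.4% of all tested genes, and below them for 1, Ighm, against 30.2%. Replicate 2 lay above all AI4 arrays for 1 of 7, Ighm, against 19.7% of all tested genes, and below them for 2, Ms4a1 and Blk, against 32.4%. Within Rip-B7xAI4, replicate 2 was the lowest array for 6 of 7 tested members, all but Ighm, where it was the lowest for 26.3% of all tested genes. Of the members not tested, Ebf1 was lowest there too and Cr2 was highest. These counts by array were chosen after the values were seen.

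Myeloid, neutrophil and MHC class II genes were high on the same arrays. The mean over the 9 members was 6.46, 5.80 and 6.59 in Rip-B7xAI4 replicates 1, 2 and 3, against 6.12, 5.69 and 6.13 in AI4. The 20 myeloid markers averaged 8.55, 5.86 and 8.43 in Rip-B7xAI4, against 6.30, 5.80 and 6.10 in AI4. Of these 20 genes, 19 lay above all AI4 arrays in Rip-B7xAI4 replicate 1 and 19 in replicate 3, but only 3 in replicate 2. The myeloid list mean thus ranged from 5.86 to 8.55 in Rip-B7xAI4, against 5.80 to 6.30 in AI4. Since no measure of background was used, no marker is called absent. The part of myeloid RNA in the values of Ms4a1, Bank1 and Cd79b was not tested.

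Genes of antigen presentation by MHC class II, which B cells share with dendritic cells and macrophages, had list means of 7.46, 6.42 and 8.14 in Rip-B7xAI4, against 6.65, 6.23 and 6.55 in AI4. All 9 lay above every AI4 array in Rip-B7xAI4 replicate 3, and 5 did in replicate 1 and 1 in replicate 2. Cd74, the invariant chain, had 8.82, 7.0 and 10.14 in Rip-B7xAI4, against 6.75, 5.14 and 6.65 in AI4. Its difference of 2.48 ± 0.82 (SE) did not pass (adjusted p = 0.512 by limma). Neutrophil markers had list means of 8.70, 5.79 and 7.95 in Rip-B7xAI4, against 5.72, 5.76 and 5.66 in AI4. The 12 dendritic cell markers averaged 6.14, 5.78 and 6.92 in Rip-B7xAI4, against 6.01, 5.93 and 5.88 in AI4. The erythroid list, of only 2 genes with a probe, averaged 7.25, 6.34 and 9.31 in Rip-B7xAI4, against 6.72, 6.71 and 6.50 in AI4. Dendritic and erythroid lists were thus lowest of the 6 arrays in Rip-B7xAI4 replicate 2 and highest in replicate 3. Within Rip-B7xAI4 the MHC class II list had the same order, while the myeloid and neutrophil lists were highest in replicate 1. Acinar cell markers averaged 5.95, 5.75 and 5.86 in Rip-B7xAI4, against 5.83, 5.86 and 5.84 in AI4. Islet cell markers averaged 5.58, 5.80 and 5.87 in Rip-B7xAI4, against 6.11, 5.87 and 5.75 in AI4. Stromal and endothelial markers averaged 5.35, 5.58 and 5.67 in Rip-B7xAI4, against 5.85, 5.99 and 5.68 in AI4. For the islet and stromal lists replicate 2 lay between the other Rip-B7xAI4 arrays, unlike for Ms4a1, Bank1 and the myeloid list. For the acinar list replicate 2 was the lowest of the 6 arrays, with Rip-B7xAI4 means only between 5.75 and 5.95. The part of these cell types in the B cell gene values was not tested.

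**Figure D3:**
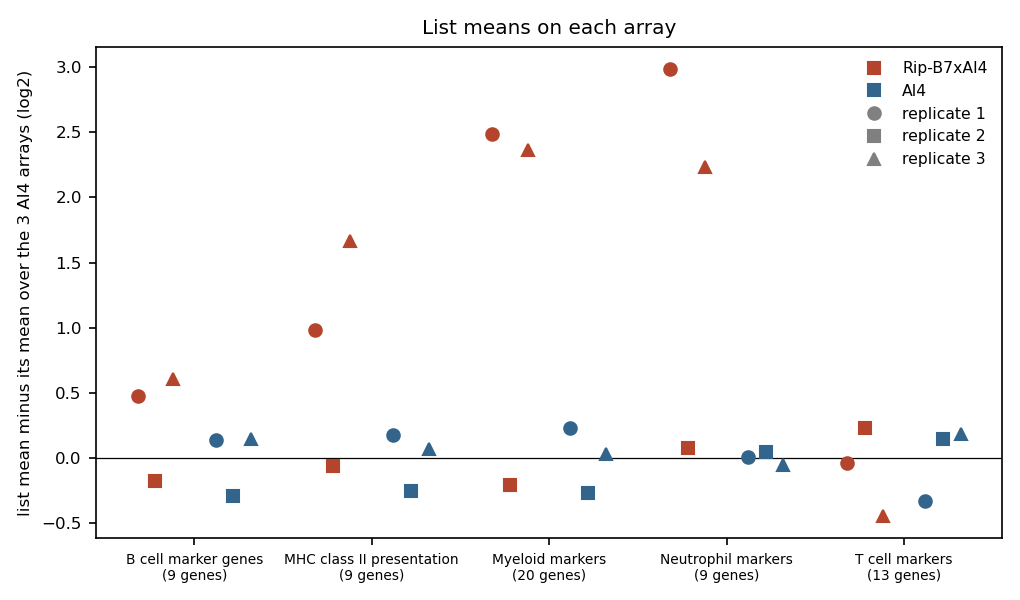
Mean log2 expression of 5 gene lists on each array (x axis, Rip-B7xAI4 left of AI4 in each list), minus the mean of that list over the 3 AI4 arrays (y axis, log2), with the shape giving the replicate number. In Rip-B7xAI4 replicates 1 and 3 the B cell marker genes stood 0.48 and 0.61 above the AI4 mean and the myeloid markers 2.49 and 2.36 above it, while replicate 2 stood at -0.18 and -0.21.

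Other genes of the B lineage were read in 6 further lists, of surface receptors, receptor signalling, transcription factors, immunoglobulin genes, plasma cell genes and early progenitor genes. Of 65 tested genes in these lists, 0 passed an adjusted p of 0.05 in limma, and 6 had a positive difference with an unadjusted p under 0.05, with 0 negative ones. That is 9.23% of these genes with Rip-B7xAI4 higher, where 5.56% of all tested genes passed in that direction and 3.17% in the other. Those 6 were Cd200, Cd81, Pik3ap1, Irf8, Prdm1 and Xbp1. All 6 are made by cells other than B cells too, among them activated T cells or myeloid cells. Pik3ap1, an adaptor between receptors and PI3 kinase, had 8.17, 8.11 and 7.83 in Rip-B7xAI4, against 6.92, 6.50 and 6.83 in AI4. It differed by 1.28 ± 0.19 (SE; adjusted p = 0.158 by limma) and, unlike Ms4a1 and Bank1, was high in Rip-B7xAI4 replicate 2.

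Cd22, Pou2af1, Spib and Blnk are given as further genes of these lists. Cd22, an inhibitory lectin of B cells, had 5.98, 5.47 and 5.92 in Rip-B7xAI4, against 6.13, 5.88 and 5.90 in AI4. Its difference was -0.18 ± 0.20 (SE). Pou2af1, the coactivator that works with octamer factors in B cells, differed by -0.03 ± 0.19 and Spib by 0.18 ± 0.16. Blnk, the linker protein downstream of Cd79a and Cd79b, had 7.16, 5.77 and 6.35 in Rip-B7xAI4, against 6.76, 5.61 and 5.45 in AI4, with a difference of 0.49 ± 0.47.

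A surface receptor, Cd180, and a signalling gene, Rasgrp3, shared the array pattern of Ms4a1 and Bank1. Cd180, a Toll-like receptor homologue of B cells and macrophages, had log2 values of 8.21, 6.31 and 9.32 in Rip-B7xAI4, against 6.04, 6.15 and 7.02 in AI4. Rasgrp3, a Ras activator of B cell receptor signalling, had 6.69, 4.97 and 7.38 in Rip-B7xAI4, against 5.36, 5.30 and 5.18 in AI4. Both were high in Rip-B7xAI4 replicates 1 and 3 and within or below the AI4 range in replicate 2. Their differences of 1.54 ± 0.73 and 1.07 ± 0.57 (SE) did not pass, with adjusted p of 0.576 and 0.582 by limma. Cd72, a B cell coreceptor, went another way, with 8.88, 7.24 and 7.39 in Rip-B7xAI4, against 6.54, 8.40 and 8.38 in AI4.

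The lists did not stand uniformly above the background. The median difference was 0.19 over 19 tested surface receptors, 0.29 over 13 signalling genes, -0.02 over 16 transcription factors and 0.02 over 5 immunoglobulin and surrogate light chain genes. It was -0.14 over 8 plasma cell and germinal centre genes and -0.0011 over 4 early progenitor genes, against -0.10 over all tested genes. Vpreb1, a surrogate light chain of early B cells, was high on a single array, with 8.99 in Rip-B7xAI4 replicate 1, against 6.10 and 5.99 in Rip-B7xAI4 replicates 2 and 3 and 5.91 to 6.69 in AI4. Sdc1, the plasma cell marker CD138, differed by -0.43 ± 0.19 (SE; adjusted p = 0.567 by limma).

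**Figure D4:**
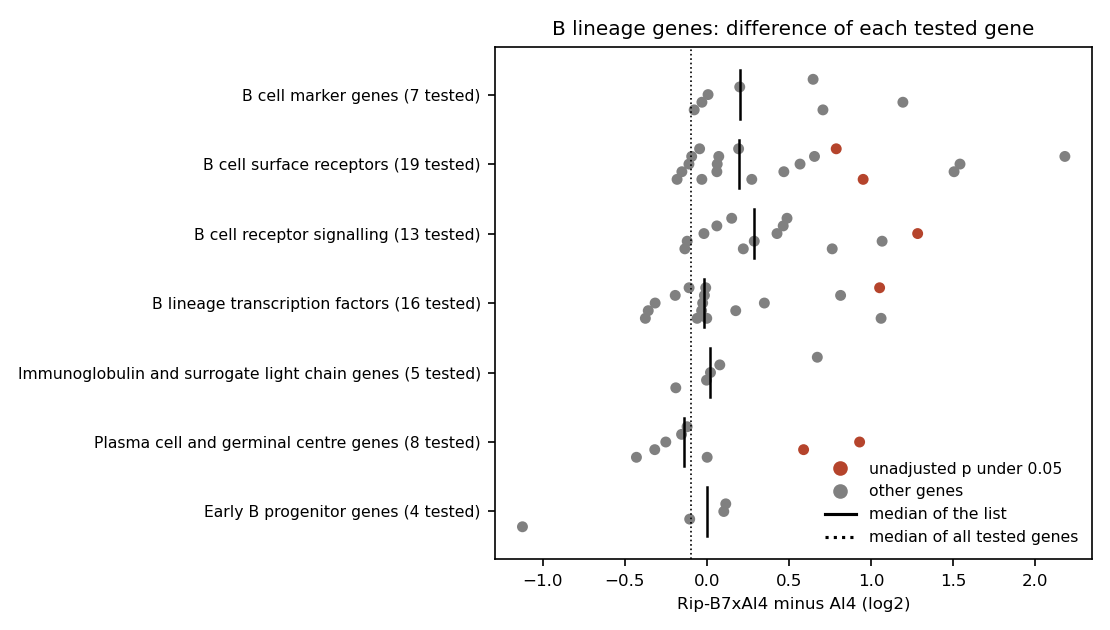
Difference, Rip-B7xAI4 minus AI4 (x axis, log2), of each tested gene in the B cell marker list and the 6 other B lineage lists (rows), with red for an unadjusted p under 0.05, a bar for the list median and a dotted line for the median of all tested genes. The red points are Cd200, Cd81, Pik3ap1, Irf8, Prdm1 and Xbp1, and none of the 9 marker genes is among them.

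Genes with an array pattern most like the members were sought by Pearson r over the 6 arrays among 13195 tested genes, as a description without a test. With so few arrays a high r is easily reached, and 61 genes had an r over 0.9 to the mean of the 9 members. The 10 most alike were Dhrs3 (r = 0.988), Fam122b, Olfr871, Slfn5, Unc13a, Poc1a, Ctss, Plxnb2, Fastkd2 and Rassf5 (r = 0.964). Ctss, the protease cathepsin S of antigen-presenting cells, had 10.99, 9.40 and 11.14 in Rip-B7xAI4, against 9.94, 9.15 and 9.65 in AI4. For single members, the most alike genes differed from each other. Dhrs3 was most like Bank1 (r = 0.992) and Hmox1, the haem oxygenase of macrophages, most like Ms4a1 (r = 0.992). Cd79a was most like Ptprc (r = 0.985), Cd79b most like Mre11a (r = 0.996) and Ighm most like Rfng (r = 0.98). Pax5 was most like Azi2 (r = 0.997), Blk most like Chchd4 (r = 0.99) and Cr2 most like Olfr667 (r = 0.99). Ebf1 was most like Vtcn1 (r = 0.996), the B7x gene itself, which had 6.33, 6.13 and 6.23 in Rip-B7xAI4, against 6.28, 5.92 and 6.09 in AI4.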

How the data were processed

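Each of the 6 samples was read on its own Affymetrix Mouse Gene 1.0 ST array, in a single colour. The arrays were processed by the authors in Affymetrix Expression Console, per the submitters' processing notes, with its version and summarisation step not given in the sources used here. Deposited values are taken as log2 from their range, since the scale is not stated, and were used with no further normalization. Of 28325 probes, 21760 had 1 gene symbol in the platform annotation, 1621 had several and 4944 had none. Probes with several symbols were not used, and gene IDs tied 21669 of the named probes to RefSeq (GRCm38.p6), with 0 symbols changed. The brightest probe per gene left 19929 genes, and leaving out the 30% of lowest mean gave 13950 tested genes.

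Groups were taken from the titles. Differences, Rip-B7xAI4 minus AI4, came from lmFit and eBayes of limma 3.58.1 under R 4.3.3, two-sided, with no block and with Benjamini-Hochberg adjustment over all genes tested. The fit was tested on simulated data of 13950 genes, in 10 sets for each size of change, with 200 genes changed in a set. It recovered 0.05% of the changed genes at a log2 change of 1, 88.2% at 2 and 96.4% at 3. The 9 members were always named, as were up to 4 tested genes of each of 17 other lists considered by smallest p, some further B cell genes and the genes of most similar pattern. Not all of these are printed. The members and lists were chosen with earlier results of these data known. Alternatives were array weights, eBayes with trend and robust, each probe alone or the probe mean per gene, leaving out 50% of genes as dim or none, median centring, quantile normalization, the replicate block, and the fit without each array. The fit without Rip-B7xAI4 replicates 1 and 3 was added after the data were seen. A pseudocount did not apply to log2 values.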

Additional observations from a re-analysis of the deposited data

How the results depend on the processing

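No member passed an adjusted p of 0.05 under any of the 15 alternatives run for the count of members called. The count over all genes, 1 as reported, was 38 with array weights, 0 with the replicate block, 0 without Rip-B7xAI4 replicates 1 and 3 together, and 0 to 22 when 1 array was left out, with 22 without Rip-B7xAI4 replicate 2. The median difference of the tested members lay between 0.10 and 0.69 when 1 array was left out, with 0.69 without AI4 replicate 3, and was -0.17 without Rip-B7xAI4 replicates 1 and 3 together. At an unadjusted p under 0.05, 3 members counted without Rip-B7xAI4 replicate 2 (Ms4a1, Cd79b and Bank1), 2 with the replicate block (Cd79b and Bank1), 1 without AI4 replicate 3 and 1 under median centring (Cd79b in both).

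The signs of 5 of the 7 tested members, none of which had passed, turned without Rip-B7xAI4 replicates 1 and 3 together, to -0.93 for Ms4a1, -0.17 for Bank1, -0.076 for Pax5, -0.38 for Blk and 0.56 for Ighm. The lone Rip-B7xAI4 array is assumed there to vary like the AI4 arrays. With array weights they were 0.0051 for Cd79a, 0.30 for Ighm and -0.27 for Blk. Cd79a was 0.016 after quantile normalization, and Ighm was 0.036 under median centring. With 1 array left out, the difference of Cd79a ran from -0.58 to 0.70, of Ighm from -0.33 to 0.13 and of Blk from -0.20 to 0.20. The cause was not tested.

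Deviations of same-numbered samples from their group means correlated at -0.08, 0.06 and -0.22 for replicates 1, 2 and 3 over all tested genes, so the numbers were not taken to pair the samples. No measure of background was used, so which low values lie above background was not tested.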
